A study of Homo sapiens with 63 samples.

Results

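The serum starved gradient was compared with itself: the 5 polysome gradient fractions numbered 18 to 22 were set against the 5 fractions numbered 8 to 12, gene by gene. These 10 samples were taken by fraction number alone from 63 samples in the series, of which 60 are gradient fractions (20 in each of 3 gradients) and 3 are lysates that were not analysed here. HEK293 cells, a line derived from human embryonic kidney, were held without fetal bovine serum for 2 h while amino acids were left in the medium. The gradients used for comparison came from cells in logarithmic growth in full medium and from cells kept for 1 h in Earle's balanced salts with vitamins and serum but no amino acids. All cells received cycloheximide, which holds ribosomes on mRNA, and poly(A)+ RNA of each fraction was sequenced after lysis in a detergent buffer. There was 1 gradient per condition. The 5 fractions of a window are neighbouring cuts of that gradient and not replicates, so no p-value is given, and every SD is a spread along the gradient.

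In a polysome gradient, free messenger ribonucleoproteins, ribosomal subunits, single ribosomes and polysomes separate by size, and an mRNA that carries more ribosomes moves further. Whether high or low fraction numbers are heavy is not stated, so positions are given by number. TOP mRNAs begin with a C followed by an unbroken run of pyrimidines (the terminal oligopyrimidine tract), encode ribosomal proteins and several translation factors, and are known for translation that depends on growth factors and amino acids through the mTOR pathway. Other mRNAs with known translational control carry short upstream reading frames, as in ATF4, or an iron response element, as in the ferritins.

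Start-site sequences show what defines the TOP class beside mRNAs that do not have the tract. Each line gives 15 bases before and 15 bases from the start annotated in RefSeq on GRCh38.p14, read 5′ to 3′ on the gene's own strand, and capitals mark a pyrimidine run that opens with C at the annotated start. The windows lie across the boundary of the promoter and exon 1 of each gene. The first 6 belong to mRNAs of the ribosomal protein and other TOP lists, and the last 4 to the mRNAs of an hnRNP protein, a glycolysis enzyme, an RNA helicase and a ribosomal protein whose annotated start lacks the run.
EEF1A1 (chr6:73521018-73521047, minus strand): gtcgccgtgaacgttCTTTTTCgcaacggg
EEF2 (chr19:3985449-3985478, minus strand): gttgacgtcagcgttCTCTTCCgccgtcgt
RPS6 (chr9:19380222-19380251, minus strand): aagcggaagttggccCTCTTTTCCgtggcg
TPT1 (chr13:45341169-45341198, minus strand): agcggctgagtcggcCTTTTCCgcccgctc
RACK1 (chr5:181243892-181243921, minus strand): ggggggcttttctctCTCTCTTTCactgca
RPL41 (chr12:56116618-56116647, plus strand): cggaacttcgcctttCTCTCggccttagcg
HNRNPA2B1 (chr7:26200732-26200761, minus strand): agcggctctagcggcagtagcagcagcgcc
PGK1 (chrX:78104233-78104262, plus strand): tcctgcccgcgcggtgttccgcattctgca
EIF4A3 (chr17:80147114-80147143, minus strand): gttctcggcagcggcacagcgaggtcggca
RPS29 (chr14:49598696-49598725, minus strand): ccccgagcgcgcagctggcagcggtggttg

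Ribosomal protein mRNAs made up 29.9, 24.5, 19.5, 15.3 and 15.0% of the rescaled total in fractions 18 to 22, against 78.9, 70.4, 64.3, 59.8 and 52.1% in fractions 8 to 12. The share was lower in each fraction from 18 to 22 than in every fraction from 8 to 12, and the 2 windows did not overlap. Because each fraction was rescaled to the same total, the share left to other genes is larger where this one is smaller. The median gene was 1.79 higher on the log2 scale in fractions 18-22, a 3.47-fold difference. The size of this difference depends on the scaling. It was 0.28 with size factors from median ratios and 0.21 with the values as deposited. Spike-in rows (29 ERCC standards and luciferase) were removed before rescaling, which left 11074 genes, and the 7889 with a mean rescaled value of at least 5 over the 10 fractions were kept. The 3185 others, among them EGR1 and FOS, are not described further.

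The libraries were not all alike. Across the 7889 genes, the log2 values of fraction pairs correlated at 0.76 to 0.99 within 18-22, at 0.91 to 0.98 within 8-12 and at 0.55 to 0.84 between the windows, as a description over genes that share libraries. Fraction 22 stood apart in the deposited values, with a column total of 179014 where the other 9 fractions had 3705407 to 26736091, and with 2.79% of its total in spike-ins where the others had 0.42 to 0.72%. The main counts below are therefore also given without it. The cell line's markers VIM, NEFM, NEFL, KRT18, KRT8 and CDH2 were in the table (6 of 8, PAX2 and LHX1 being not in it), and 0 of 8 markers of blood, liver, endothelium and fibroblasts were. The spike-ins were not used to set amounts. In bulk fractions rescaled in this way, fewer mRNA molecules and other mRNAs taking a larger share cannot be told apart.

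A gene was called when its mean log2(rescaled value + 1) differed by at least 1 between the windows and all 5 values of one window lay above all 5 of the other. By this rule 4807 of 7889 genes (60.9%) were higher in fractions 18-22, 284 (3.6%) were lower and 2798 were neither. Relative to the median gene, that is after 1.79 was subtracted from each gene's 18-22 values, 517 genes (6.55%) were higher and 1452 (18.4%) were lower. The split depends on scaling: with size factors from median ratios it was 1447 higher and 1413 lower, and with the values as deposited 3 higher and 312 lower. The deposited total of fraction 22 was 179014, against 7856961 to 26736091 in fractions 8-12. By construction the rule could then hardly call a gene higher, and deposited values were not recomputed without fraction 22. On rescaled values without fraction 22, the rule called 4924 higher and 283 lower, and relative to the median gene 592 higher and 1433 lower. Fraction 18 weighed more on the calls relative to the median gene, which were 1011 higher and 1733 lower without it, and without fraction 8 the uncentred lower count was 494. Differences below are therefore given as measured and, for gene groups, also relative to the median gene. Here "as measured" means on the rescaled values without centring, not on the values as deposited. Higher and lower counts of a list compare with the shares of all genes, 60.9% and 3.6% as measured, 6.55% and 18.4% relative.

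**Figure D1:**
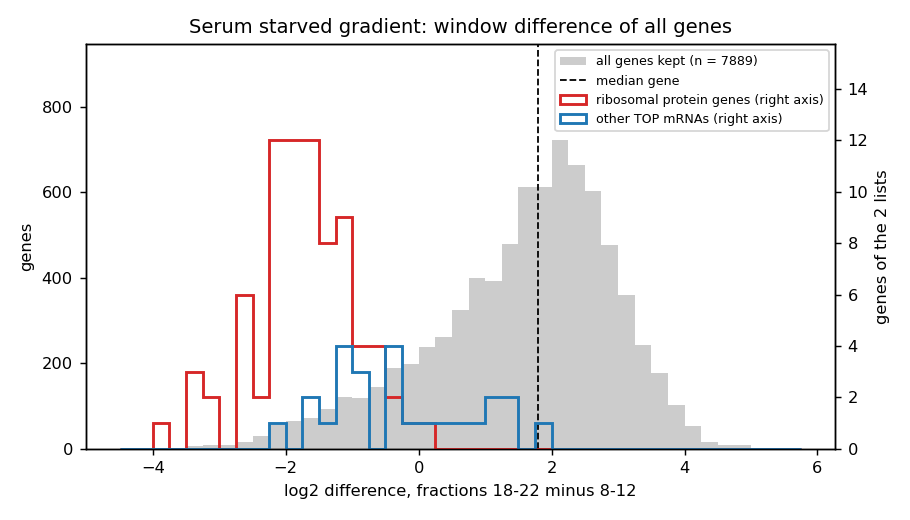
Histogram of the log2 difference (mean over fractions 18-22 minus mean over fractions 8-12) of the 7889 genes kept in the serum starved gradient (grey, left axis), with ribosomal protein genes (red) and other TOP mRNAs (blue) on the right axis and the median gene dashed at 1.79. All but 1 of the ribosomal protein genes lie below 0 (FAU is at 0.22), and all 79 lie below the median gene.

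Ribosomal protein mRNAs were the lowest group in fractions 18-22. Of 47 large subunit genes, 37 were lower and 0 higher as measured, with a median log2 difference of -1.61 (-3.40 relative to the median gene), and of 32 small subunit genes 28 were lower and 0 higher, with a median of -1.85 (-3.64 relative). All 79 were lower relative to the median gene, where 18.4% of all genes were. Without fraction 22 the relative medians were -3.27 and -3.50. Members differed among themselves: differences ran between -3.99 for RPL41 and -0.14 for RPL3 in the large subunit, and between -3.45 for RPS29 and 0.22 for FAU in the small subunit.

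RPL41, which encodes the smallest protein of the large subunit, had rescaled values of 1456, 1200.4, 960.1, 809 and 900.1 in fractions 18 to 22, against 20004, 18288, 15839, 15459.5 and 13839.6 in fractions 8 to 12. Its windows were far apart, with every value of fractions 18-22 below every value of fractions 8-12. RPS29, a zinc-binding protein of the small subunit, had 7741, 6109, 4843, 3975 and 4196 in fractions 18 to 22, against 92832, 63559.8, 57309, 45282 and 39181 in fractions 8 to 12. RPS12 and RPS27, also small subunit proteins, differed by -3.28 and -3.27. RPS6, the ribosomal protein phosphorylated downstream of mTOR, had 2779.6, 2630.5, 2154, 1589 and 1464 in fractions 18 to 22, against 5070.0, 5760.2, 5909, 5513 and 4884 in fractions 8 to 12, a difference of -1.40. RPL3, one of the longer ribosomal proteins, had 5213, 5351, 5905, 4988 and 4741 in fractions 18 to 22, against 2810.1, 5721, 6765, 8601 and 6784 in fractions 8 to 12. Its windows overlapped, so RPL3 was not called as measured. Ribosomal protein genes have many processed pseudogenes, as do EEF1A1, TPT1, GAPDH, NPM1 and FTH1, and how reads shared with such copies were assigned is unknown.

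The other TOP mRNAs, which encode elongation factors, initiation factor 3 subunits and RNA-binding proteins, were on the same side of the median gene but spread more widely. Of 25 kept, 5 were higher and 8 lower as measured, and relative to the median gene 19 were lower and 0 higher, with a median of -0.36 (-2.15 relative). EEF1A1, the factor that brings aminoacyl-tRNA to the ribosome, had 11663, 10966, 12786, 17322 and 16233 in fractions 18 to 22, against 27471, 45516, 55044, 40357 and 30393 in fractions 8 to 12, a difference of -1.50. TPT1, a translationally controlled tumor protein and a classic TOP mRNA, had 2666, 2855, 1959.6, 1413 and 1172 in fractions 18 to 22, against 11205, 10410.0, 9500.0, 6100.3 and 4314 in fractions 8 to 12, a difference of -2.04. Both mRNAs had non-overlapping windows with the higher values in fractions 8-12. EEF2, the translocation factor, averaged 2491 ± 853 in fractions 18-22 and 3019 ± 1003 in fractions 8-12 (SD over 5 fractions each), and its windows overlapped. PABPC1, the poly(A)-binding protein, averaged 433 ± 67.5 in fractions 18-22 and 534 ± 149 in fractions 8-12, again with overlap. RACK1, a ribosome-bound scaffold, averaged 5094 ± 861 in fractions 18-22 and 5637 ± 1328 in fractions 8-12. These windows do not hold the highest values of these mRNAs. Fraction 7 had 80313 for EEF1A1, 5835 for EEF2, 2771 for PABPC1 and 7703 for RACK1, each above every value of both windows. At the other end of the list, NPM1, a nucleolar chaperone, differed by 1.48, and VIM, the intermediate filament protein vimentin, by 1.78, close to the median gene. For NPM1, fraction 7 had 1927, below every value of its fractions 18-22.

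**Figure D2:**
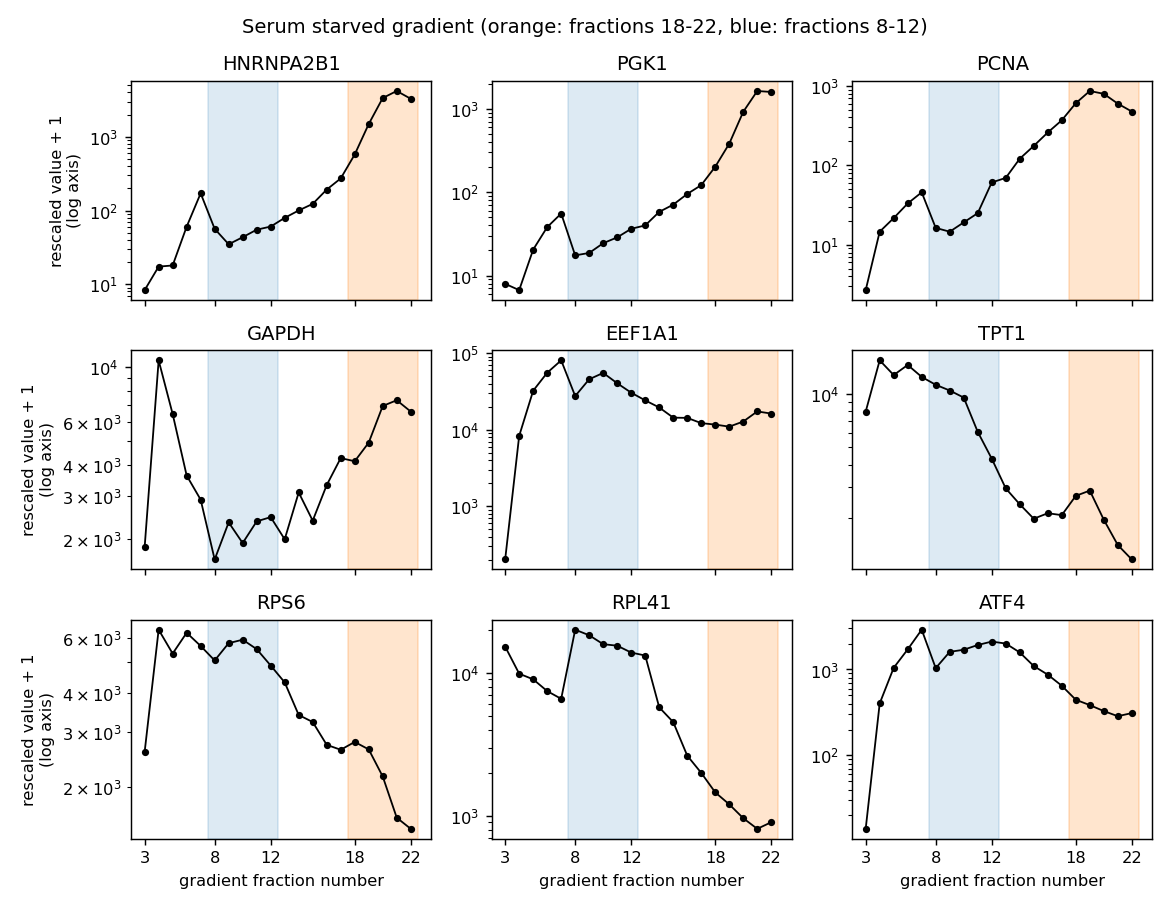
Rescaled value + 1 (log axis) of 9 mRNAs over the 20 fractions of the serum starved gradient, with fractions 18-22 shaded orange and 8-12 blue; each point is 1 fraction. HNRNPA2B1, PGK1 and PCNA stand highest in the orange window, RPL41, RPS6, TPT1 and ATF4 are higher in the blue one, EEF1A1 differs by -1.50, and GAPDH by 1.46.

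The start-site tract was then set against the window difference over all genes with a single start in the RefSeq promoter table, 4753 of 7889 kept. The pattern searched was a C at the annotated first base followed by bases that are all C or T, on the gene's strand only. A run of 5 or more was found at 308 of these 4753 genes (6.48%) and at 880 of 22114 promoters in the table (3.98%). It was found at 41 of 53 ribosomal protein genes and 12 of 15 other TOP genes that had a sequence. The median difference was 0.19 for 177 genes with a run of 7 or more, 1.14 for 131 with a run of 5 or 6, 1.67 for 277 with a run of 1 to 4, and 1.89 for 4168 genes whose start base is not C. The share lower relative to the median gene was 53.7% in the longest class, 36.6% in the next, 22.4% in the shortest and 15.8% where the start base is not C.

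With the ribosomal protein and other TOP lists taken out, the medians were 1.00 for 135 genes with a run of 7 or more, 1.24 for 120 with 5 or 6, 1.68 for 273 with 1 to 4 and 1.89 for 4157 without a C. The order of the classes was the same, and the distance between the ends was smaller. Quartiles overlapped between all classes. Of the 135 genes with a run of 7 or more, 58 (43.0%) were higher in fractions 18-22 as measured, against 62.9% where the start base is not C. The shares lower relative to the median gene were 40.7, 30.8, 21.6 and 15.6% from the longest run to no C. Annotated starts may differ from those used in these cells. Taking the longest run over all annotated starts of a gene, the medians were 0.67 (302 genes), 1.18 (252), 1.68 (587) and 1.88 (5500) in the same order. RPS29 had a difference of -3.45 although its annotated start holds no such run. Whether these cells use another start for it was not tested.

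**Figure D3:**
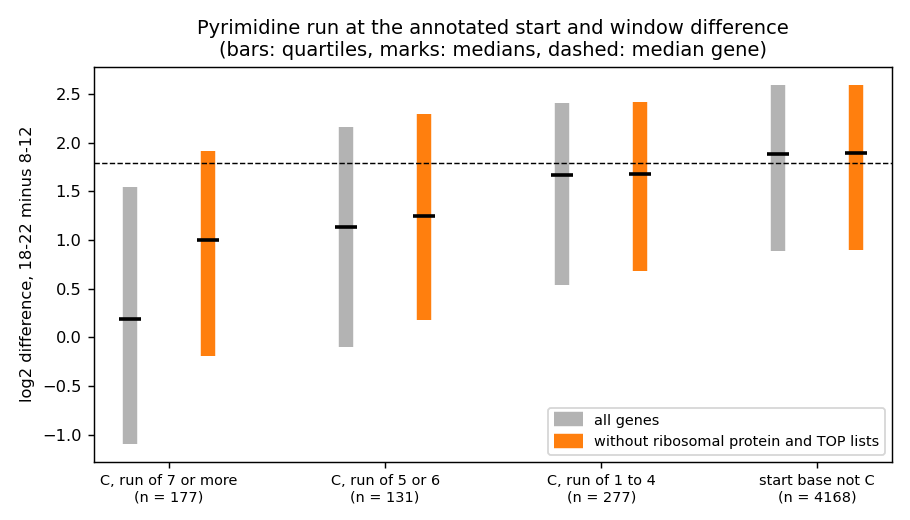
Log2 difference (18-22 minus 8-12) by the length of the pyrimidine run at the annotated start; bars span the quartiles, marks are medians, grey is all genes and orange excludes the ribosomal protein and TOP lists. The grey medians are 0.19, 1.14, 1.67 and 1.89 from the longest run to no C, and the bars overlap.

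The 12 largest differences in favour of fractions 18-22 among genes with a mean of at least 20 belonged to HNRNPA2B1, ANP32A, EIF4A3, C21orf59, PGK1, PDHA1, PCNA, RAB7A, NUDC, YWHAB, NOC2L and RBM42, and ran between 4.66 and 5.40. HNRNPA2B1, an hnRNP protein of pre-mRNA, had 573, 1485, 3345, 4165 and 3266 in fractions 18 to 22, against 55.5, 33.9, 42.5, 54.0 and 59.6 in fractions 8 to 12. PGK1, the phosphoglycerate kinase of glycolysis, had 201, 381, 921, 1637 and 1594 in fractions 18 to 22, against 16.4, 17.7, 23.4, 27.7 and 35.4 in fractions 8 to 12. PCNA, the sliding clamp of DNA replication, had 604, 861, 793, 596 and 475 in fractions 18 to 22, against 15.3, 13.6, 18.1, 24.0 and 59.9 in fractions 8 to 12. None of these windows overlapped, and the top fraction differed: PCNA was highest in fraction 19, HNRNPA2B1 and PGK1 in 21. EIF4A3, a helicase of the exon junction complex, differed by 5.08, and RAB7A, a GTPase of late endosomes, by 4.80.

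The mRNAs lowest in fractions 18-22 were, beside RPL41, RPS29, RPS12 and RPS27, those of SELENOW, COMMD6, TMEM99, LSM10, FAM200B, COPS9, CCNB1IP1 and ITGAE, with differences between -3.67 and -3.18. COMMD6, a member of the COMM domain family, had 76.3, 62.1, 35.1, 29.4 and 34.6 in fractions 18 to 22, against 484, 542, 610.3, 546 and 610.1 in fractions 8 to 12. SELENOW, a small selenoprotein, had 2.80, 3.27, 2.00, 2.31 and 2.63 in fractions 18 to 22, against 37.5, 58.0, 62.4, 41.7 and 30.6 in fractions 8 to 12. COPS9, a subunit of the COP9 signalosome, differed by -3.42, and LSM10, a component of the U7 particle of histone mRNA processing, by -3.45. Some of them were at least as high before the window 8-12: SELENOW had 103 and 119 in fractions 3 and 4, and FAM200B 79.6 and 79.2.

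The hnRNP, proteasome and SR protein lists had medians above the median gene. Of 19 hnRNP mRNAs (HNRNPA1 counted with the TOP list), all 19 were higher as measured and 10 relative to the median gene, with a median of 3.60 (1.81 relative). Of 34 proteasome subunits 32 were higher as measured, 12 were higher and 1 lower relative to the median gene, and the median was 3.09 (1.29 relative). PSMD2, a subunit of the regulatory particle, differed by 4.17, and PSMB10, a subunit of the immunoproteasome, by -0.87. Of 12 SR splicing factors 11 were higher as measured and 3 relative to the median gene (median 2.74, 0.95 relative), and of 12 CLK kinases and LUC7-like factors 8 and 1 (2.16, 0.36 relative), which is near the 60.9% and 6.55% of all genes.

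Metabolic and cell cycle lists also had medians above the median gene. Over all genes, 60.9% were higher as measured, and 6.55% were higher and 18.4% lower relative to the median gene. All 17 glycolysis enzymes were higher as measured and 6 relative to the median gene, with a median of 2.85 (1.05 relative), and GAPDH was the lowest at 1.46. Of 30 DNA replication mRNAs 28 were higher as measured and 5 relative to the median gene (median 3.01, 1.21 relative). Of 25 mitotic mRNAs 21 were higher as measured, and 4 were higher and 1 lower relative to the median gene (2.88, 1.09 relative), the lower one being CKS1B, a small subunit of cyclin-dependent kinases. Of 20 aminoacyl-tRNA synthetases 18 were higher as measured (median 2.89, 1.10 relative). Relative to the median gene 1 was higher, near the 6.55% of all genes, and 1 was lower. The lower one was QARS, the glutaminyl enzyme, with 169, 185, 215, 292 and 352 in fractions 18 to 22, against 209, 352, 459, 444 and 306 in fractions 8 to 12. Of 27 sterol and fatty acid synthesis enzymes 26 were higher as measured, with 5 higher and 1 lower relative to the median gene (2.71, 0.91 relative).

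All 8 TRiC subunits were higher as measured and 0 relative to the median gene (2.81, 1.02 relative). Of 19 heat shock chaperones 16 were higher as measured, with 1 higher and 1 lower relative to the median gene (2.64, 0.84 relative). Over all genes 60.9% were higher as measured and 6.55% relative to the median gene. The relative counts of higher TRiC and heat shock mRNAs did not exceed that last share. Of 28 actin, tubulin and actin-binding mRNAs 24 were higher and 1 lower as measured (2.63, 0.84 relative). Its lowest member was TMSB10, a thymosin that binds actin monomers, with 464, 336, 279.9, 215 and 223 in fractions 18 to 22, against 526, 686, 1102, 1741 and 2502 in fractions 8 to 12. ACTB, cytoplasmic beta-actin, had 1994, 3048, 3966, 3056 and 2483 in fractions 18 to 22, against 115, 139, 198, 251 and 409 in fractions 8 to 12. The windows of TMSB10 and of ACTB did not overlap, in opposite directions. Of 27 endoplasmic reticulum mRNAs, 4 were higher and 6 lower relative to the median gene (median 1.98, 0.19 relative). The higher ones include HSPA5, the luminal chaperone BiP, at 3.79, and the lower ones SEC61G, a small translocon subunit, at -1.78.

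Mitochondrial lists were near or below the median gene. Of 78 mitochondrial ribosomal proteins, 7 were higher and 13 lower relative to the median gene, near the 6.55% and 18.4% of all genes, with a median of 1.83 (0.03 relative). Of 37 complex I subunits 3 were higher and 10 lower (median 1.41, -0.39 relative), and of 39 subunits of complexes II to V 2 were higher and 14 lower (1.29, -0.50 relative). Subunits of the same complex lay far apart. NDUFV1, the flavoprotein subunit of complex I, had 314, 492, 780.1, 560.3 and 489 in fractions 18 to 22, against 22.7, 40.6, 46.5, 63.3 and 62.1 in fractions 8 to 12. NDUFC1, an accessory subunit of the same complex, had 66.7, 50.3, 40.3, 29.1 and 33.8 in fractions 18 to 22, against 119.6, 169, 156, 207 and 241 in fractions 8 to 12. ATP5E, the epsilon subunit of ATP synthase, differed by -2.05, and UQCRC1, a core subunit of complex III, by 3.78.

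Among mRNAs with known translational control, the upstream reading frame list was low. Of 16 kept, 3 were higher and 2 lower as measured, and 1 was higher and 7 lower relative to the median gene, with a median of 0.17 (-1.62 relative). ATF4, the transcription factor of the integrated stress response, had 444, 384, 327, 285 and 309.8 in fractions 18 to 22, against 1036, 1603, 1696, 1926 and 2112 in fractions 8 to 12, a difference of -2.23. DDIT3, the stress factor CHOP, had 3.52, 4.81, 3.58, 3.85 and 4.00 in fractions 18 to 22, against 10.1, 18.1, 17.7, 23.0 and 36.5 in fractions 8 to 12, at low levels throughout. EIF5, which reads its own start codon context, was the exception that was higher relative to the median gene, with a difference of 3.13. The 17 target genes of ATF4 did not share its position: 5 were higher and 1 lower relative to the median gene (median 2.19, 0.40 relative). PHGDH, the first enzyme of serine synthesis, differed by 4.10, and NUPR1, a small nuclear stress protein, by -1.33.

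The iron and polyamine list (14 kept) had 7 lower and 0 higher relative to the median gene, with a median of 0.60 (-1.20 relative). FTH1, the ferritin heavy chain, averaged 726 ± 152 in fractions 18-22 and 429 ± 116 in fractions 8-12, and its windows overlapped. It was far higher outside both windows, with 4629, 15725, 7822, 3712 and 2537 in fractions 3 to 7. FTL, the ferritin light chain, had 5192, 8387, 3938, 1858 and 1341 in fractions 3 to 7. OAZ1, the ornithine decarboxylase antizyme made by frameshifting, averaged 703 ± 197 in fractions 18-22 and 1140.1 ± 909 in fractions 8-12, with overlap. Of 32 other translation initiation factors, 7 were higher and 4 lower relative to the median gene (2.42, 0.62 relative). The lowest was EIF4EBP1, an mTOR-regulated repressor of the cap-binding factor, at -0.44. Of 29 ribosome biogenesis factors 4 were higher and 3 lower (2.82, 1.02 relative).

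Growth factor response genes were close to the median gene. Of 13 immediate early genes 2 were higher and 1 lower relative to the median gene (1.94, 0.15 relative). MYC, the growth-regulating transcription factor, had 1411, 1982, 2549.7, 2629 and 2441 in fractions 18 to 22, against 182, 172, 225, 304 and 248 in fractions 8 to 12. JUN, a subunit of AP-1, had 68.3, 142, 345, 501 and 521 in fractions 18 to 22, against 76.3, 72.3, 63.1, 71.8 and 39.1 in fractions 8 to 12. Fraction 18 of JUN lay inside the range of fractions 8-12, so JUN was not called although its mean difference was 1.95. Of 12 FOXO and growth factor withdrawal genes 0 were higher and 2 lower relative to the median gene (1.88, 0.08 relative), and of 7 ID, SMAD and YAP target genes 0 were called either way (2.12, 0.33 relative).

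Several further lists completed the picture. Zinc finger genes of the ZNF family (146 kept) had 3 higher and 56 lower relative to the median gene, with a median of 0.97 (-0.82 relative). Of 6 polyadenylated replication histone mRNAs 5 were lower (-0.35, -2.14 relative), and of 9 replacement variants 1 was higher and 0 lower (1.63, -0.16 relative). Histone genes are near-copies of each other, and so are the 4 MTRNR2L genes, which resemble mitochondrial ribosomal RNA and were all lower relative to the median gene (-0.94, -2.74 relative), so these values are uncertain. MTRNR2L8 had 5956, 14746, 15232, 12239 and 7891 in fractions 3 to 7, above every value of both windows. Lysosomal mRNAs (24 kept) had 2 higher and 3 lower (2.09, 0.30 relative), autophagy mRNAs (20 kept) 1 and 3 (1.67, -0.13 relative), amino acid and glucose transporters (13 kept) 2 and 0 (2.18, 0.39 relative), and genes with very long coding sequences (13 kept) 1 and 0 (2.62, 0.82 relative). The lysosomal and autophagy counts are near the 6.55% higher and 18.4% lower of all genes. No member of the noncoding RNA list was among the deposited genes, so none could be described.

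**Figure D4:**
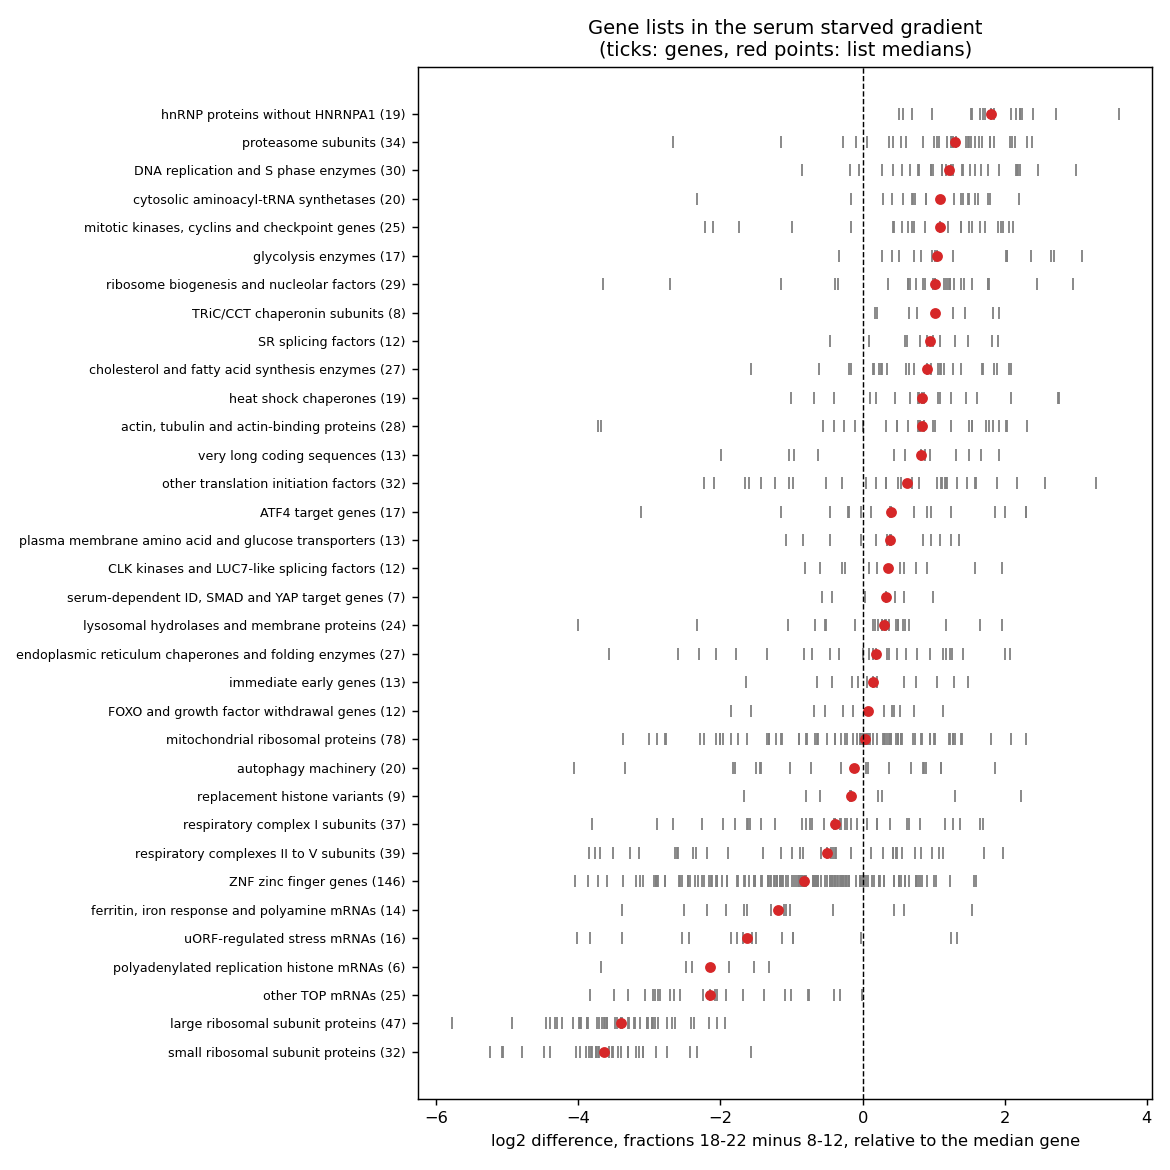
Log2 difference (18-22 minus 8-12) relative to the median gene for the members (ticks) and medians (red points) of 34 gene lists with 5 or more kept genes, numbers kept in brackets. The ribosomal protein lists have the lowest medians (-3.64 and -3.40), hnRNP and proteasome mRNAs the highest (1.81 and 1.29), and most lists span several log2 units.

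The window 18-22 was itself not uniform. Between fractions 18-19 and 21-22 the median gene changed by -0.13 on the log2 scale, and 3540 of 7889 genes were higher in 21-22. All 20 aminoacyl-tRNA synthetases, all 8 TRiC subunits, 16 of 17 glycolysis enzymes and 23 of 29 ribosome biogenesis factors were higher in fractions 21-22 than in 18-19, with median differences of 1.89, 1.91, 1.33 and 1.79. DNA replication mRNAs had a median of 1.94 (21 of 30 higher). The opposite held for 47 large and 32 small subunit ribosomal protein mRNAs, with 1 and 0 higher in 21-22 and medians of -0.96 and -0.94. Mitochondrial ribosomal proteins (11 of 78 higher, median -0.90), complex I (6 of 37, -1.02) and complexes II to V (5 of 39, -1.0) were also lower at 21-22, and so were all 9 replacement histone variants (-0.82).

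Single mRNAs show these shapes. PARP1, the poly(ADP-ribose) polymerase, had 88.1, 167, 471, 1349 and 1988 in fractions 18 to 22, each fraction above the one before. H3F3A, a replacement histone H3, had 1810.3, 1249, 786, 664 and 597 in the same fractions, each below the one before, against 187, 306, 386, 500.3 and 1033 in fractions 8 to 12. Of the 4807 genes higher as measured, 701 had their largest 18-22 value in fraction 18, 1008 in 19, 881 in 20, 902 in 21 and 1315 in 22. Of the 284 lower genes, 220 were largest in fraction 18 within that window. In the window 8-12, 7644 of 7889 genes were higher in 11-12 than in 8-9 (median 1.14), and so were 6 of 47 large and 5 of 32 small subunit ribosomal protein mRNAs. By construction of the rescaling, the share left to genes that are not ribosomal protein genes was 47.9% in fraction 12 and 21.1% in fraction 8, 1.18 higher on the log2 scale.

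The same contrast was then computed in the other gradients, which share no samples with the serum starved one. Over the 7312 genes kept in all 3, the median gene differed by 1.82 in the serum starved gradient, 1.18 in log phase and 2.16 under amino acid starvation. List medians in the next paragraphs are relative to these medians unless given as measured, whereas differences of single genes and of start-run classes are as measured. Across genes, the serum starved differences correlated with those of log phase at 0.90 and with those of amino acid starvation at 0.97, as a description. Each condition is 1 gradient, so differences between gradients were not tested, and a shift in how a gradient was cut cannot be told apart from a shift of the mRNAs. Ribosomal protein mRNAs were 15.0 to 29.9% of fractions 18-22 and 52.1 to 78.9% of fractions 8-12 after serum starvation, 20.1 to 38.2% and 48.0 to 70.8% in log phase, and 13.1 to 28.1% and 57.0 to 78.9% under amino acid starvation.

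The other TOP mRNAs were the list that lay furthest apart between serum starvation and log phase. They had a median of -2.18 relative to the median gene after serum starvation, 0.29 in log phase and -2.72 under amino acid starvation. As measured, those medians were -0.36, 1.46 and -0.56. Of the 25, 24 were lower after serum starvation than in log phase, with a median gap of -2.46. Large subunit ribosomal protein mRNAs stood at -3.43 after serum starvation, -2.0 in log phase and -3.98 under amino acid starvation (43 of 47 lower than in log phase), and small subunit mRNAs at -3.67, -2.47 and -4.03 in the same order (32 of 32 lower). EEF1A1 averaged 13794 in fractions 18-22 and 39756 in fractions 8-12 after serum starvation, whereas it averaged 32583 in fractions 18-22 and 11511 in fractions 8-12 in log phase. Its difference as measured was -1.50 after serum starvation, 1.46 in log phase and -1.74 under amino acid starvation, and relative to the median gene -3.33, 0.29 and -3.90.

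Not every ribosomal protein mRNA was alike in this respect. As measured, RPL41 differed by -3.99 after serum starvation, -5.22 in log phase and -3.17 under amino acid starvation, and RPS29 by -3.45, -3.44 and -2.92. RPS6 differed by -1.40 after serum starvation, 0.66 in log phase and -1.72 under amino acid starvation as measured, and by -3.22, -0.52 and -3.87 relative to the median gene. RPL41 and RPS29 were thus already low in fractions 18-22 of the log phase gradient, whereas RPS6 was close to the median gene there. The start-run classes gave median differences as measured, from a run of 7 or more to no C, of 0.19, 1.14, 1.67 and 1.89 after serum starvation, 0.35, 1.00, 1.13 and 1.19 in log phase and 0.52, 1.40, 1.92 and 2.20 under amino acid starvation.

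The 6 genes lowest in serum starvation relative to log phase were VIM, EEF2 and EEF1A1 of the other TOP list, and GAPDH, ACTG1 and LTA4H outside it. GAPDH, the glycolytic dehydrogenase, had 4146, 4935, 6951, 7334 and 6597 in fractions 18 to 22, against 1655, 2341, 1929, 2363 and 2459 in fractions 8 to 12 of the serum starved gradient. In log phase GAPDH averaged 6781 in fractions 18-22 and 262 in fractions 8-12, and under amino acid starvation 4572 and 2168. ACTG1, cytoplasmic gamma-actin, averaged 3136 in fractions 18-22 and 1362 in fractions 8-12 after serum starvation, and 4992 and 200.1 in log phase. The gap lay in the window 8-12, which held more of both mRNAs in the starved gradients. ACTB, the close paralog, averaged 2909 in fractions 18-22 and 222 in fractions 8-12 after serum starvation, and 3977 and 212 in log phase. Relative to the median gene the glycolysis list had medians of 1.24 after serum starvation, 2.79 in log phase and 1.36 under amino acid starvation, the TRiC list 0.99, 2.37 and 0.99, and the actin and tubulin list 0.81, 1.86 and 0.63.

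The 6 genes highest in serum starvation relative to log phase were EXOSC3, FKBP3, HCCS, MORF4L2, NUBP1 and OTUB1. NUBP1, a cytosolic iron-sulfur cluster factor, averaged 41.6 in fractions 18-22 and 15.6 in fractions 8-12 after serum starvation, whereas it averaged 19.4 in fractions 18-22 and 97.0 in fractions 8-12 in log phase. OTUB1, a deubiquitinase, averaged 131 in fractions 18-22 and 97.9 in fractions 8-12 after serum starvation, and 50.2 and 516 in log phase. FKBP3, a nuclear prolyl isomerase, averaged 282 in fractions 18-22 and 94.5 in fractions 8-12 after serum starvation, and 139.9 and 450.3 in log phase. For these mRNAs it was again the window 8-12 that differed most between the gradients, in the direction opposite to GAPDH.

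By the size rule as measured, 7554 genes kept in both the serum starved and log phase gradients were compared. Of these, 284 were lower in fractions 18-22 after serum starvation and 781 in log phase. The 245 shared ones are 86.3% of the 284 and 31.4% of the 781. Higher calls numbered 4552 and 3599, with 3353 shared. Of 7514 genes kept in both starved gradients, 278 were lower after serum starvation and 206 after amino acid starvation. The 185 shared ones are 66.5% of the 278 and 89.8% of the 206. Higher calls numbered 4608 and 5248, with 4514 shared. These counts are not centred on the median gene. EEF1A1 and SLC25A6, a mitochondrial ADP/ATP carrier, were lower after serum starvation and higher in log phase, whereas NUBP1 and EMG1, a ribosome biogenesis methyltransferase, were higher after serum starvation and lower in log phase. These directions are as measured, and the median gene itself differs between the gradients. Relative to it, EEF1A1 stood at -3.33 after serum starvation and 0.29 in log phase, while SLC25A6 (-2.88 and -0.10), NUBP1 (-0.31 and -3.36) and EMG1 (-0.60 and -2.46) lay below it in both. SLC25A6 and EMG1 were chosen after their values were seen. No gene was called in opposite directions after serum and amino acid starvation.

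**Figure D5:**
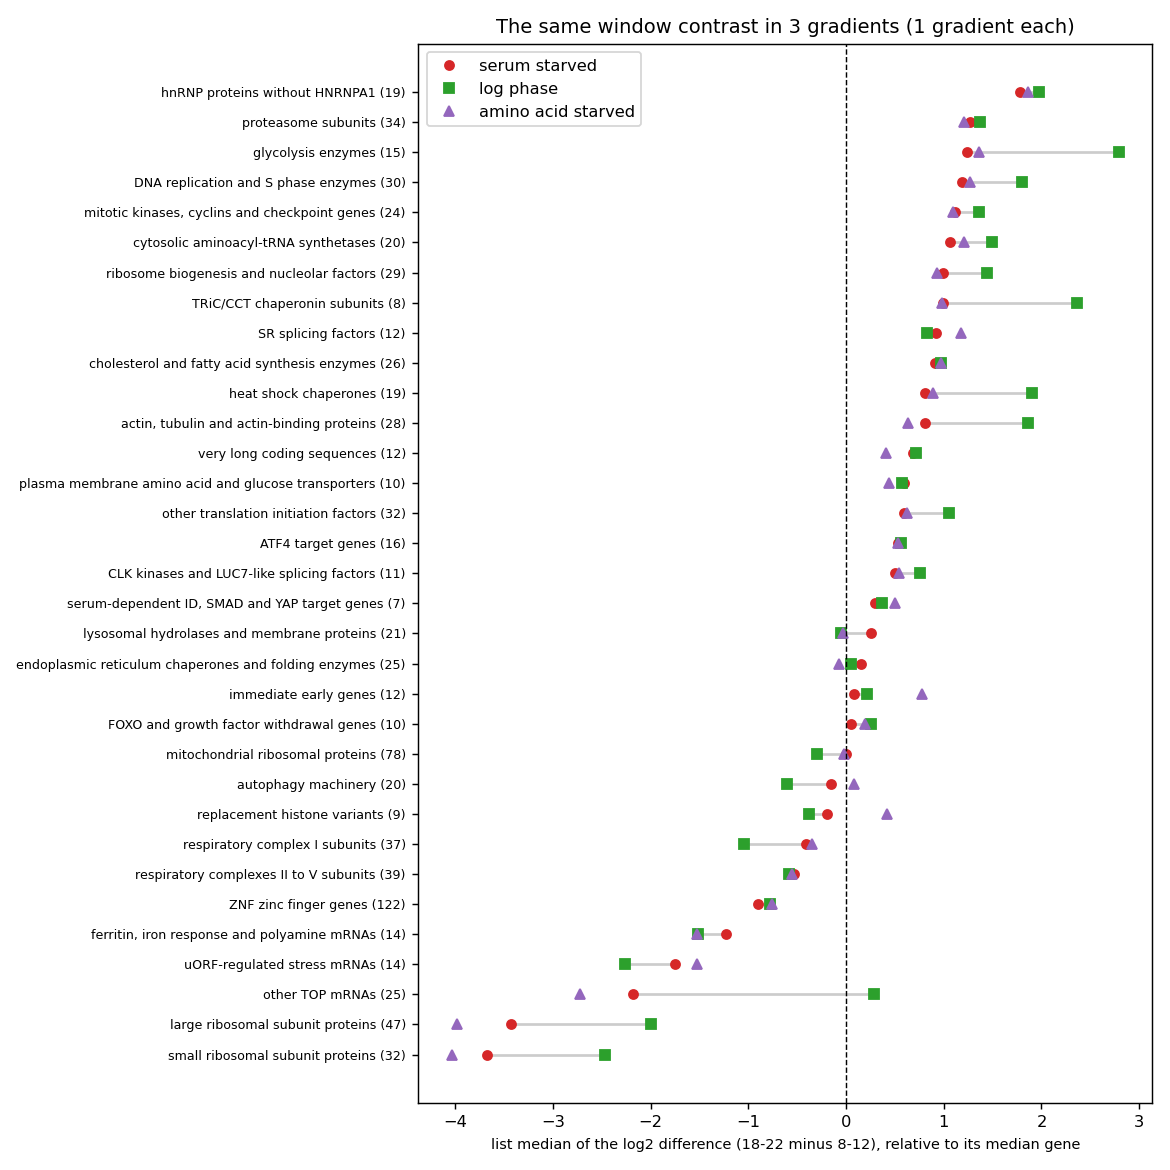
List medians of the log2 difference (18-22 minus 8-12), each relative to the median gene of its own gradient, in the serum starved (red circles), log phase (green squares) and amino acid starved (purple triangles) gradients; grey lines join serum starved and log phase. The other TOP list is at -2.18 after serum starvation and 0.29 in log phase, and most other lists lie within 1 log2 unit of each other.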

How the data were processed

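Poly(A)+ RNA of HEK293 gradient fractions was sequenced in a stranded library protocol, per the labels' protocols. The submitters' processing notes name kallisto 0.44.0, sleuth 0.29.0 and the hg38 build. The deposited values are a signal per gene and fraction, named TPM by the authors, whose columns do not sum to a constant. How they were scaled is not given in the sources used, so depth is unknown and no counting interval is given.

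From the 60 columns used, spike-in rows were removed and each column was rescaled to 1000000. Log2 of value + 1 was averaged over fractions 18-22 and 8-12, and genes with a mean of at least 5 were kept. No p-value was computed, since the fractions are not replicates. Named genes were the 12 largest differences each way (mean of at least 20), the highest, lowest and most abundant member of each of 36 lists, the 6 largest gaps to log phase each way, and 45 fixed genes (42 in the table, 40 kept). The contrast, lists and genes were chosen with earlier results of these data known. Symbols matched RefSeq for 11041 genes. The calling step was run on simulated fractions with independent noise, no trend along the gradient and no shift of the median gene. This checks the code and not the calls made in these data. Coding length and the lysates were not analysed here. Python 3.11.15, pandas 2.3.3 and numpy 2.4.6 were used.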

Additional observations from a re-analysis of the deposited data

Results flagged for a closer look

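Dixon's test was applied to 88 groups of 5 fractions, and 4 had a fraction far from the others. The test's rate of about 1 flag in 20 by chance assumes independent values. It does not hold for neighbouring cuts of a gradient. All 4 flags fell on an edge fraction of a window, so they cannot be told apart from a trend along the gradient. The spike-in share of fraction 22 was 2.79%, above 0.45 to 0.65% in the other fractions of 18-22. TUBA1B reached 699 in fraction 12, with 423 to 459 in fractions 8 to 11. ATF5 reached 9.13 in fraction 12, with 2.34 to 3.61 in fractions 8 to 11. FTH1 stood at 632 in fraction 8, with 356 to 421 in fractions 9 to 12 and 2537 in fraction 7.

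As measured, the windows of 4 genes were apart in opposite directions after serum starvation and in log phase, and the difference between the gradients was not tested. The serum starved minus log phase gap of the log2 difference was -2.97 for EEF1A1, -2.14 for SLC25A6, 2.51 for EMG1 and 3.69 for NUBP1. Relative to each gradient's median gene, EEF1A1 changed side (-3.33 after serum starvation and 0.29 in log phase), whereas SLC25A6 (-2.88 and -0.10), EMG1 (-0.60 and -2.46) and NUBP1 (-0.31 and -3.36) lay below it in both.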

How the results depend on the processing

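The counts of called genes were recomputed under 22 alternatives. List medians and named genes were recomputed under the same ones except those that change the filter, overlap or size rule. Lists in the other gradients were recomputed with centring and with the middle 3 fractions. The genes called higher in fractions 18-22 as measured (4807) numbered 1447 with median-ratio size factors, 3 with values as deposited, 517 when centred on the median gene and 2813 at a mean of at least 20. Those called lower (284) numbered 1413 with median-ratio size factors, 1452 when centred, 519 with the middle 3 fractions, 476 when overlap was allowed and 122 at a size of at least 2. Relative to the median gene, the higher calls (517) numbered 854 with median-ratio size factors, 1 as deposited, 1324 with the middle 3 fractions, 1071 with no filter, 252 at a mean of at least 20, 1357 with overlap allowed and 124 at a size of at least 2, and the lower calls (1452) numbered 378 as deposited, 911 at a mean of at least 20 and 929 at a size of at least 2. The counts of higher genes with values as deposited are limited by the low total of fraction 22, and were not recomputed without it. On rescaled values, leaving out 1 fraction at a time gave 4737 to 5357 and 279 to 494 genes as measured, and 454 to 1011 and 1416 to 1733 relative to the median gene. The relative median of the other TOP list (-2.15) was -2.34 and -1.67 with pseudocounts of 0.1 and 5, -2.32 with median-ratio size factors, -2.40 as deposited, -2.35 with the middle 3 fractions and -2.36 to -2.01 without 1 fraction. The large and small subunit medians were -3.66 to -3.21 and -3.88 to -3.39 without 1 fraction. In the serum starved gradient, no list median at or past a relative difference of 1 changed sign among 35 lists. Among 145 named genes, no gene called relative to the median gene changed sign, and the others were not checked for this. In the amino acid starved gradient, only lists with a median of at least 1 in size as measured were checked for a change of sign. Centring turned the medians of 6 of them below 0: endoplasmic reticulum mRNAs (-0.071), mitochondrial ribosomal proteins (-0.019), complex I (-0.34), complexes II to V (-0.54), ZNF genes (-0.74) and lysosomal mRNAs (-0.027), since centring subtracts that gradient's median gene. Some smaller medians changed sign too, such as that of the upstream reading frame list (0.63 as measured, -1.53 relative). No paired analysis was possible because the results come from no test and a fraction number marks a position in a gradient. Depth is unknown, so what it limits could not be computed.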
